A study of Saccharomyces cerevisiae with 14 samples.

Results

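Budding yeast (Saccharomyces cerevisiae) carrying the construct Z3EVpr-SWI4 was compared 2 h after the addition of 5 nM beta-estradiol with the same yeast before any treatment. The comparison took 4 of the 14 sequenced libraries, namely 2 labelled Estradiol 2h and 2 labelled Untreated control (0 h), and covered all 6337 genes that passed a filter on low counts. Z3EV is a synthetic, estradiol-activated transcription factor, and Z3EVpr is the promoter it acts on, so estradiol switches on SWI4. The other 10 libraries were pairs given estradiol for 1 or 4 h or the ethanol solvent alone for 1, 2 or 4 h. Ethanol 2 h values are set beside the comparison for many genes but not for all. A gene called without such a value is not thereby said to differ from the solvent pair. All 14 libraries share the genotype and the medium, which was synthetic complete with 2% glucose, and no group lacked the construct. The labels do not say whether the construct replaced the native promoter of SWI4, and read counts cannot separate RNA of an induced copy from that of a native one. Estradiol 2 h and untreated libraries differ in the hormone, in its ethanol solvent and in 2 h of further culture. Nothing in the labels says that replicates were separate cultures, so each p-value reflects the spread among these libraries, which may be technical.

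Swi4 is the DNA-binding subunit of SBF, which it forms with Swi6. SBF and the related factor MBF, made of Mbp1 and Swi6, turn on the late G1 genes that commit a cell to division. SBF is known mainly for cyclins, cell wall and bud growth genes, with the SCB element as its site, and MBF for DNA synthesis and repair genes, with the MCB element as its site. Whi5 holds SBF inactive until the G1 cyclin Cln3 and its kinase relieve the block, after which Cln1 and Cln2 reinforce the switch.

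Total read counts were 12312060 and 17314913 in the untreated libraries and 6817193 and 8678792 in the estradiol 2 h libraries, replicate 1 first here and below. Levels are given as TMM-scaled CPM, a gene's share of the reads of its library. The estradiol 2 h pair had the lowest replicate correlation of the 7 groups, a Pearson r of 0.957 across genes on the log2 CPM scale against 0.993 for the untreated pair. Estradiol 2 h replicate 2 stood apart. Its 10 most abundant genes held 23.3% of its counts, against 11.1% to 13.3% in the other 3 libraries compared. Reading frames inside the ribosomal DNA summed to 123000 CPM in it, against 19100 in estradiol 2 h replicate 1 and 52200 and 30300 in the untreated libraries. These sums are TMM-scaled too, and its low factor raises its value above the plain share of reads. Across 5264 genes its deviation from the mean of all libraries correlated with gene length at -0.37, against 0.157 to 0.27 in those other 3 libraries, and estradiol 1 h replicate 2 had a like value of -0.416. The value without that library is given for some of the genes whose call ended, or whose fold change moved by over 1.5 times, without it. It is not given for all of them, so its absence does not mean that a call held without that library.

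After 2 h of estradiol 220 of the 6337 genes had an adjusted p under 0.05 in edgeR's quasi-likelihood test, which is 3.47% and is called a change below. Of these, 159 (2.51%) were higher and 61 (0.963%) lower, and 185 (2.92%) moved by over 2-fold, 146 up and 39 down. All 220 had separate groups, but so did many genes that were not called: 1288 genes (20.3%) had both estradiol 2 h libraries above both untreated ones, and 1373 (21.7%) had both below. The median log2 fold change over all genes was 0.016. Each library weighed on the count. Leaving out estradiol 2 h replicate 2 left 120 calls (93 higher, 27 lower), and 113 of the 220 remained among them. Leaving out estradiol 2 h replicate 1 gave 294 calls, and leaving out untreated replicate 1 or 2 gave 77 or 71. Whichever of the 4 libraries was left out, 66 genes stayed called in the same direction, 54 of them higher and 12 lower.

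**Figure D1:**
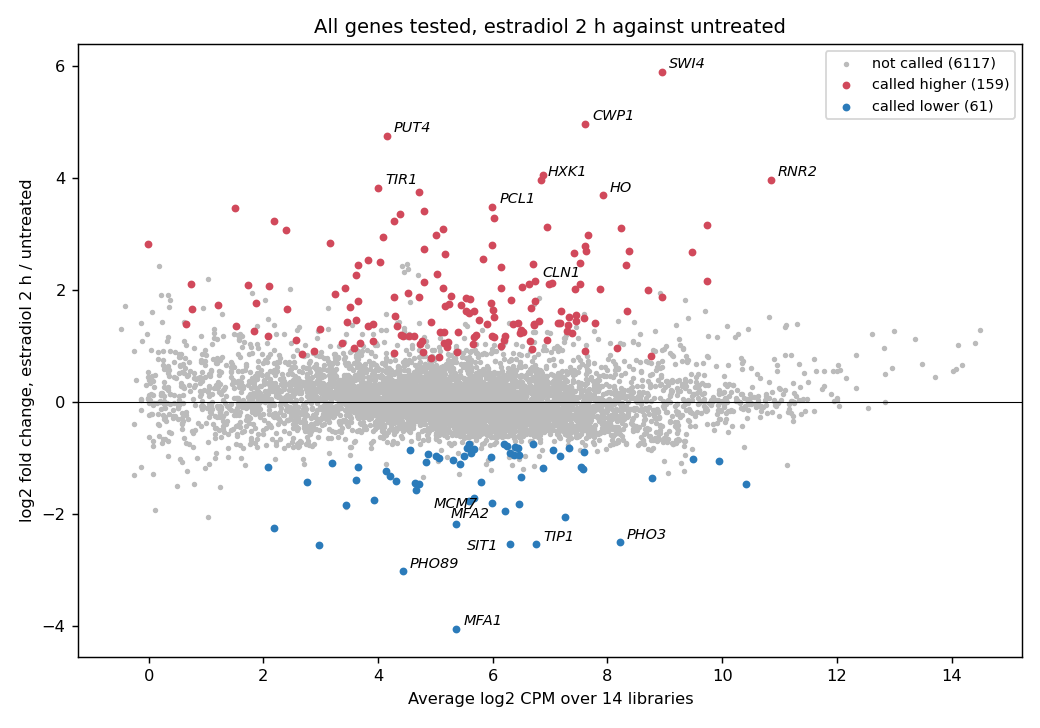
Log2 fold change of estradiol 2 h over untreated cells against average log2 CPM over 14 libraries, 1 point per tested gene. Red points are the 159 genes called higher and blue points the 61 called lower. SWI4 lies highest at 5.90 and MFA1 lowest at -4.05.

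The number of genes called with the solvent alone depended on the fit. Fitted with all 14 libraries, ethanol 2 h against untreated cells gave 3 calls (0.0473%), the hexokinase gene HXK1, the glycogen synthase gene GSY2 and YBR032W, all higher, with 374 genes at an unadjusted p under 0.05 and 41 calls by DESeq2. Fitted with only the 4 libraries compared, it gave 255 calls (209 higher, 46 lower), where estradiol 2 h against untreated cells gave 41 (35 higher, 6 lower) in the same form of fit. The order of the 2 counts thus reversed between the fits. Tested directly, estradiol 2 h differed from ethanol 2 h for 80 genes (1.26%), of which 57 (0.899%) were higher and 23 (0.363%) lower. Both comparisons share libraries with the main one, so their values are set side by side and are not separate evidence. The 159 genes called higher had a median log2 fold change of 1.68 over untreated cells, 0.52 for ethanol 2 h over untreated cells and 1.08 for estradiol 2 h over ethanol 2 h. For the 61 genes called lower these medians were -1.15, -0.30 and -0.91.

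SWI4 itself (YER111C) was the most changed gene. Its level was 17.9 and 20.7 CPM in untreated cells, 15.6 and 15.5 CPM after 2 h of ethanol and 1405 and 908 CPM after 2 h of estradiol. The estradiol libraries lay far above both other pairs, 59.9-fold over untreated cells (log2 fold change 5.90, SE 0.45, adjusted p = 4.58e-05). The change was -0.31 for ethanol 2 h over untreated cells and 6.21 for estradiol 2 h over ethanol 2 h (adjusted p = 3.59e-05). The partners and regulators of SBF were not called. SWI6 stood at 39.4 and 53.0 CPM untreated and 81.2 and 40.3 CPM with estradiol (log2 fold change 0.40, SE 0.39, adjusted p = 0.683). MBP1 stood at 28.0 and 43.6 and 66.6 and 27.3 CPM (log2 fold change 0.39, SE 0.43, adjusted p = 0.719). Both pairs overlapped, since estradiol 2 h replicate 1 was above the untreated libraries and replicate 2 was not. CLN3 hardly moved, from 57.2 and 57.3 CPM untreated to 53.8 and 56.5 CPM with estradiol (log2 fold change -0.054, SE 0.18, adjusted p = 0.921). WHI5 was at 10.4 and 8.35 CPM untreated and 4.05 and 6.02 CPM with estradiol, a separation of the groups that did not pass the test (log2 fold change -0.91, SE 0.36, adjusted p = 0.237).

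Most of the cyclins and regulators of the SBF regulon rose. Of the 14 listed genes, all tested, 9 rose, 0 fell and 13 had a positive log2 fold change, with a median of 1.18 beside 0.016 over all genes. The called share was 64.3%, beside 3.47% over all genes. With RNA of whole cultures, more cells in a phase that makes a transcript and more transcript per cell cannot be told apart. HO, the endonuclease that starts mating-type switching, went from 46.7 and 49.6 to 592 and 657 CPM, with ethanol 2 h at 47.2 and 43.2 CPM. It rose 13.0-fold, and its replicates lay close together (log2 fold change 3.70, SE 0.21, adjusted p = 4.13e-06). PCL1, a G1 cyclin of the Pho85 kinase, went from 13.4 and 13.5 to 142 and 162 CPM (log2 fold change 3.49, SE 0.21, adjusted p = 4.13e-06). CLN1, a G1 cyclin of the Cdc28 kinase, went from 38.3 and 44.1 to 203 and 168 CPM (log2 fold change 2.17, SE 0.19, adjusted p = 1.07e-04). The ethanol 2 h pair stayed near the untreated one for both, with log2 fold changes of -0.22 and 0.29. CLN2, a paralog of CLN1 with the same role, went from 84.1 and 92.9 to 210.2 and 171 CPM (log2 fold change 1.11, SE 0.24, adjusted p = 0.0255). It lost its call without estradiol 2 h replicate 1 (adjusted p = 0.0665), without untreated replicate 1 (adjusted p = 0.238), without untreated replicate 2 (adjusted p = 0.164) and with library totals as the only scaling (adjusted p = 0.491).

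The remaining 5 called genes of that list, named after their values were seen like all list members beyond the leading 3, included repressors. YHP1 and YOX1, homeodomain repressors that act at M/G1 promoters, rose by log2 fold changes of 1.75 and 1.88. NRM1, a co-repressor of MBF, went from 11.3 and 11.6 to 45.4 and 56.5 CPM (log2 fold change 2.15, SE 0.25, adjusted p = 5.54e-04). PCL2, a sister cyclin of PCL1, and HCM1, a forkhead factor of S phase, rose by 1.26 and 1.07. HCM1 lost its call when a library was left out (adjusted p = 0.135 without untreated replicate 2), so that 7 of the 9 calls held whichever of the 4 libraries was left out. Among the 5 uncalled genes, NDD1 and TOS8 had log2 fold changes of 0.77 and 0.75, and TOS4, PLM2 and WTM2 lay between -0.32 and 0.22.

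**Figure D2:**
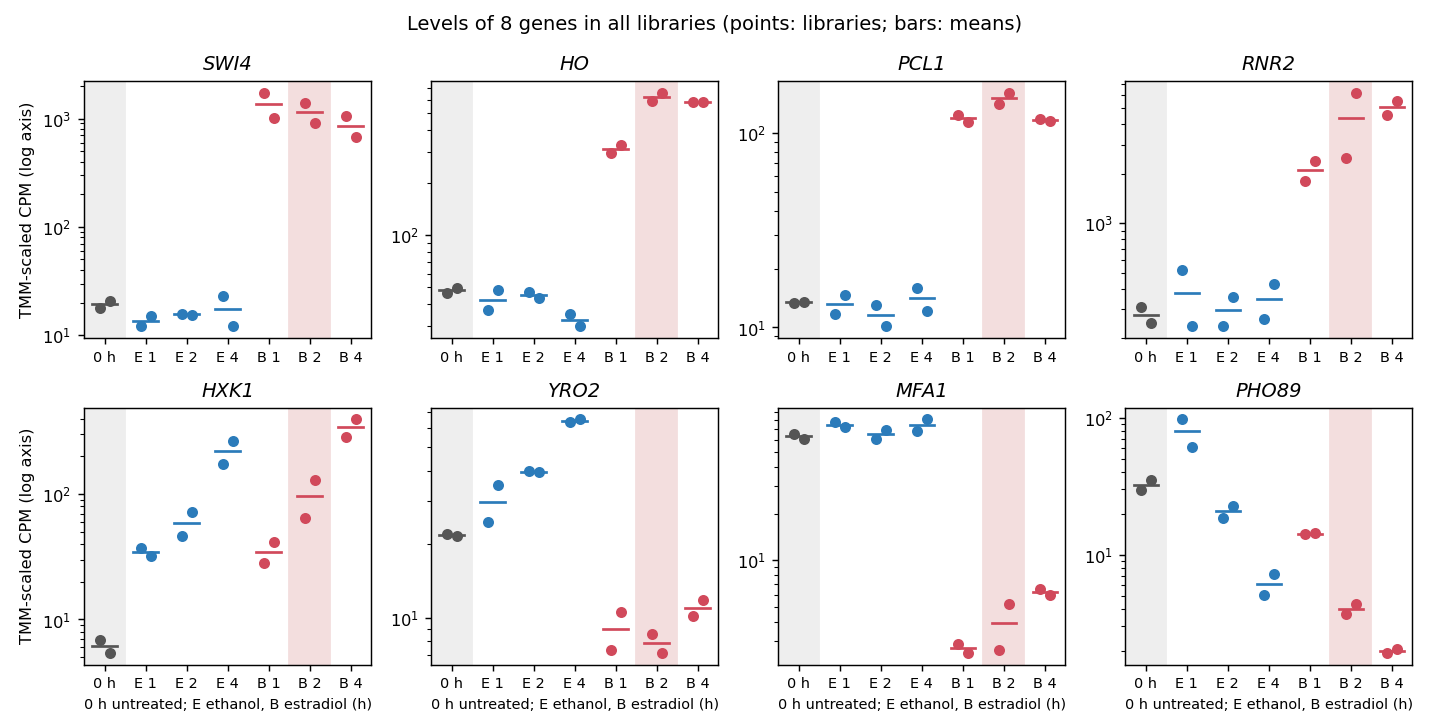
TMM-scaled CPM (log axis) of 8 genes in all 14 libraries, with a panel for each gene. Points are libraries and bars are means of the 2 libraries of a group: 0 h untreated in grey, E ethanol and B estradiol at 1, 2 and 4 h. SWI4, HO, PCL1 and RNR2 stand high in the estradiol libraries alone, HXK1 stands above the untreated pair with ethanol as well, and MFA1 is low with estradiol (2.62 and 5.21 CPM at 2 h against 65.4 and 61.0 CPM untreated).

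Cell wall and bud growth genes of the SBF regulon rose as well, 14 of 27 tested, with 0 lower and a median log2 fold change of 1.18. The called share was 51.9%, beside 3.47% over all genes. In estradiol 2 h against ethanol 2 h the list's median was 0.80. CSI2, which takes part in chitin synthesis, went from 41.8 and 37.0 to 147 and 180.4 CPM, with ethanol 2 h at 42.9 and 39.0 CPM (log2 fold change 2.05, SE 0.18, adjusted p = 1.13e-04). TOS6, a cell wall protein, went from 17.6 and 14.5 to 86.9 and 226 CPM (log2 fold change 3.29, SE 0.39, adjusted p = 6.40e-04). GIC2, an effector of the polarity switch Cdc42, went from 52.7 and 55.3 to 128 and 132 CPM (log2 fold change 1.26, SE 0.15, adjusted p = 6.67e-04). The estradiol libraries of CSI2 and GIC2 lay close together, while TOS6 was higher in replicate 2 and had a log2 fold change of 2.45 without it. The others called were SVS1, SRL1, EXG1, MSB2, CRH1, SUR1, MNN1, GIC1, AXL2, OCH1 and KRE6. They span wall proteins (SVS1, SRL1), a glucanase (EXG1), glucan and mannan synthesis (KRE6, OCH1, MNN1), a chitin cross-linker (CRH1), sphingolipid mannosylation (SUR1), a surface mucin (MSB2) and bud site and polarity factors (AXL2, GIC1). Their log2 fold changes ran from 0.92 for KRE6 to 2.67 for SVS1, and that of SRL1 was 2.46, or 1.88 without estradiol 2 h replicate 2. Without estradiol 2 h replicate 2 the list kept 10 of its 14 calls and its median was 0.86, and 7 calls (CSI2, TOS6, GIC2, SVS1, EXG1, MNN1 and SUR1) held whichever of the 4 libraries was left out.

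The promoters of these genes were read for the SCB letters. Among the 23 SBF-list genes that rose, 6 held CNCGAAA on either strand between 250 bases before and 50 bases after the first base of the reading frame, and 0 held the MCB letters ACGCGT. The 3 with the stricter form CACGAAA are printed below, because they show the element of SBF in the genes that rose. The sequences were cut from the RefSeq R64 genome and its annotation, on the strand of the gene and 5′ to 3′. No source names the build used for counting, so these positions belong to R64 alone. Capitals mark CACGAAA, which reads TTTCGTG where it lies on the other strand. SVS1 covers chrXVI:242651-242950, HO covers chrIV:47982-48281 and GIC2 covers chrIV:1080150-1080449, all on the minus strand.
SVS1: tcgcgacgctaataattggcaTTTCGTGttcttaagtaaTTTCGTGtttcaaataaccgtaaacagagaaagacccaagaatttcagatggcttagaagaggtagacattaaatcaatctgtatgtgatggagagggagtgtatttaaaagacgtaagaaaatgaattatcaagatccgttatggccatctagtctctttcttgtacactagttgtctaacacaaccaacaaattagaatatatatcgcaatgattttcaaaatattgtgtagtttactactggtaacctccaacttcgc
HO: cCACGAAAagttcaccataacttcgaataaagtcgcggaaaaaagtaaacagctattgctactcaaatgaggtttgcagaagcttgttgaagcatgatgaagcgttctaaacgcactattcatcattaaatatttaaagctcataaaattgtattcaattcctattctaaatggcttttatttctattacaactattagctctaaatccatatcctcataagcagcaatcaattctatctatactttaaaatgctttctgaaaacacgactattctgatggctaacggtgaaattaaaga
GIC2: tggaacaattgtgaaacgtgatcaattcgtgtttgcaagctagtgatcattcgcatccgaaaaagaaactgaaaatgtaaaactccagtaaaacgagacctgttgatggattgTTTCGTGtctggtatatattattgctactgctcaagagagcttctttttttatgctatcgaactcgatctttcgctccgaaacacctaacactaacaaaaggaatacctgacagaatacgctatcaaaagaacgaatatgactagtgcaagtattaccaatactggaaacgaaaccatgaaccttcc
In SVS1, whose level went from 52.0 and 50.6 to 217 and 434 CPM (log2 fold change 2.67, SE 0.34, adjusted p = 9.04e-04), 2 matches began 229 and 211 bases before the reading frame. In HO the match began 249 bases before the reading frame, at the edge of the window, and in GIC2 137 bases before it. Over all 5779 promoters of tested genes CACGAAA was present in 4.31% and CNCGAAA in 14%. Among the 146 promoters of genes called higher the shares were 5.48% and 15.8%. Among the 58 promoters of genes called lower they were 3.45% and 20.7%, so CNCGAAA was more frequent there than among genes called higher. The shares for genes called higher lie near the background, and elements beyond the window were not searched.

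DNA replication and repair genes of the MBF regulon split. Of 35 tested, 3 rose and 4 fell (20% called, beside 3.47% over all genes), and the median log2 fold change was -0.35. The median was -0.75 without estradiol 2 h replicate 1 and -0.24 without replicate 2, and without replicate 2 there were 3 calls higher and 1 lower. Those that rose were CLB5 and CLB6, the S-phase cyclins, and RNR1, the large subunit of ribonucleotide reductase. CLB5 went from 25.8 and 30.2 to 95.5 and 74.5 CPM (log2 fold change 1.60, SE 0.20, adjusted p = 8.75e-04). CLB6 went from 3.72 and 5.99 to 25.2 and 22.3 CPM (log2 fold change 2.27, SE 0.33, adjusted p = 0.00232). RNR1 went from 276 and 226 to 715 and 1145 CPM (log2 fold change 1.89, SE 0.32, adjusted p = 0.00673). Both cyclins missed the threshold when libraries were scaled by totals alone, with adjusted p = 0.124 for CLB5 and 0.0891 for CLB6. Those that fell were CDC21 (thymidylate synthase), CDC9 (DNA ligase), POL12 (a subunit of DNA polymerase alpha) and RAD27 (flap endonuclease). CDC21 went from 59.9 and 60.0 to 30.1 and 25.4 CPM, with ethanol 2 h at 51.0 and 53.5 CPM (log2 fold change -1.11, SE 0.17, adjusted p = 0.00274). CDC9 went from 105 and 94.9 to 55.2 and 51.6 CPM (log2 fold change -0.91, SE 0.16, adjusted p = 0.00698). POL12 and RAD27 fell, with log2 fold changes of -0.82 and -0.74. Calls for RNR1, CDC9, POL12 and RAD27 depended on single libraries. The highest adjusted p was 0.125 for RNR1 without untreated replicate 2, 0.120 for CDC9 without untreated replicate 1, 0.200 for POL12 without untreated replicate 1 and 0.296 for RAD27 without untreated replicate 1.

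The MCB letters ACGCGT, which read the same on both strands, stood in the windows of CDC21, CDC9, POL12 and RAD27, all 4 MBF-list genes that fell. The windows of 3 of them are printed because they hold the element of MBF in genes that fell. Capitals mark ACGCGT and, in CDC9, the adjoining CNCGAAA match CGCGAAA. CDC21 covers chrXV:467540-467839, CDC9 covers chrIV:167205-167504 and POL12 covers chrII:153561-153860, all on the minus strand of R64.
CDC21: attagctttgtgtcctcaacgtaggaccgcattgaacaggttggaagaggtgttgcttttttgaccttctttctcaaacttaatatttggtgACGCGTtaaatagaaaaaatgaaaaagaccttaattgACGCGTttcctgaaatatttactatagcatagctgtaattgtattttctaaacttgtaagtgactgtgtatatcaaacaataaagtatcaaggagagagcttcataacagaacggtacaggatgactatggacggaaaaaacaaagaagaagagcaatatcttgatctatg
CDC9: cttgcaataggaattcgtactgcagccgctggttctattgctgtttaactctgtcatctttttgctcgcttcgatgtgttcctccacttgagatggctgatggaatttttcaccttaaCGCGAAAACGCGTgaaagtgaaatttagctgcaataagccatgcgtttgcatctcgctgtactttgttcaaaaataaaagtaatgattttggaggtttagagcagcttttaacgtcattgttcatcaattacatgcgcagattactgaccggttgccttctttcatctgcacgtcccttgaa
POL12: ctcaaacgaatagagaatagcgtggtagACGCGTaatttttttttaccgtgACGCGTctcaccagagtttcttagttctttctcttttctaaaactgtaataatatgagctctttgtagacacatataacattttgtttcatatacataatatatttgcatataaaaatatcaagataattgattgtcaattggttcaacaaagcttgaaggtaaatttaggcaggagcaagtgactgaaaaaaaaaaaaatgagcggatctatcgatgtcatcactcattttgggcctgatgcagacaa
CDC21 held 2 matches, 158 and 121 bases before the reading frame, and POL12 held 2, 222 and 199 bases before it. Over the whole genome set 3.11% of the 5779 promoters held ACGCGT. The share was 19.0% of the 58 promoters of genes called lower (11 genes) and 3.42% of the 146 promoters of genes called higher (5 genes). Besides those 4, the genes called lower with ACGCGT were RBH2, KCC4, SPO16, MSA2, ESC8, PIG1 and CMR1, and those called higher with it were ACM1, BAG7, SPC42, SPS4 and SRL3. Within the MBF list, the 23 genes with ACGCGT in the window had a median log2 fold change of -0.59 with 4 positive, and the 12 without it had a median of -0.0041 with 6 positive. All 180 tested genes with ACGCGT had a median of -0.12.

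RNR2, the small subunit gene of ribonucleotide reductase, rose strongly. It went from 308 and 245 to 2489 and 6236 CPM, while ethanol 2 h stood at 238 and 356 CPM (log2 fold change 3.98, SE 0.54, adjusted p = 0.00140). It was 15.8-fold higher, and estradiol 2 h replicate 2 gave the highest value. Without that library its log2 fold change was 3.17, adjusted p = 0.00292. The frame YJL026C-A, which its systematic name places beside RNR2 (YJL026W) on the other strand, went from 19.7 and 13.4 to 161 and 390.1 CPM, a log2 fold change of 4.06, or 3.29 without estradiol 2 h replicate 2. No source says whether counting used strand, so its reads and those of RNR2 may not be separate. RNR2 was the only one of the list's 6 tested genes that was called (16.7%, beside 3.47% over all genes). The large subunit gene RNR1, called higher as given above, was counted in the MBF list and not in this one. RNR4, the other small subunit, and SML1, the inhibitor of the enzyme, had log2 fold changes of 1.64 (adjusted p = 0.087) and 1.28 (adjusted p = 0.24).

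All 8 core histone genes had positive log2 fold changes, with a median of 0.84, and 2 of them rose (25%, beside 2.51% called higher over all genes). HTA2, a gene of histone H2A, went from 214 and 234 to 393 and 487 CPM (log2 fold change 0.97, SE 0.23, adjusted p = 0.0400). HHF2, a gene of histone H4, went from 347 and 375 to 614 and 668 CPM (log2 fold change 0.83, SE 0.20, adjusted p = 0.0425). Each has a near-identical sister gene, so reads may be split between copies. HTA2 lost its call in 3 of the 4 fits that left out a library and HHF2 in all 4, reaching adjusted p = 0.322 without untreated replicate 1 and adjusted p = 0.349 without untreated replicate 1. Without estradiol 2 h replicate 2 the list's median was 0.65 and neither gene was called. CLB1, a mitotic cyclin, was the only called gene of the 22 in the CLB2 cluster (4.55%, against 3.47% of all genes), going from 52.7 and 61.8 to 193 and 111 CPM (log2 fold change 1.41, SE 0.32, adjusted p = 0.0354), and it lost its call in 3 of the 4 fits that left out a library (adjusted p = 0.300 without untreated replicate 1). None of the 16 Hcm1 targets of the spindle was called, beside 3.47% of all genes.

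The genes of the replicative helicase fell. Of the 10 M/G1 genes listed, 6 fell and 0 rose (60%, beside 0.963% called lower over all genes), with a median of -0.93. These 6 were the helicase subunits MCM2 to MCM7. MCM7 went from 104 and 94.8 to 25.1 and 32.2 CPM, with ethanol 2 h at 91.4 and 61.6 CPM (log2 fold change -1.79, SE 0.23, adjusted p = 9.04e-04). MCM5 went from 76.3 and 85.3 to 27.9 and 21.6 CPM (log2 fold change -1.70, SE 0.21, adjusted p = 6.40e-04). MCM4 went from 116 and 107 to 56.6 and 59.1 CPM (log2 fold change -0.95, SE 0.17, adjusted p = 0.0101). For each of these genes both estradiol libraries lay below both untreated ones and below the ethanol pair. MCM2, MCM3 and MCM6 fell, with log2 fold changes of -0.91, -1.33 and -0.98. The 4 other listed genes, the origin licensing and firing factors CDC6, ORC1, TAH11 and DBF4, were not called and lay between -0.13 and 0.70. MCM5 and MCM7 kept their calls whichever of the 4 libraries was left out. The other 4 did not, with the highest adjusted p at 0.118 for MCM2 without untreated replicate 1, 0.267 for MCM3 without untreated replicate 1, 0.130 for MCM4 without untreated replicate 1 and 0.246 for MCM6 without estradiol 2 h replicate 2. Scaling by totals alone gave adjusted p = 0.0819 for MCM5 and 0.00904 for MCM7.

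Both genes of the a-factor pheromone and that of its exporter fell. The labels give no mating type, and the a-cell markers were the abundant ones here. All 8 a-specific genes had negative log2 fold changes, with a median of -0.79, and 3 of them fell (37.5%, beside 0.963% called lower over all genes). MFA1, which encodes the pheromone a-factor, went from 65.4 and 61.0 CPM untreated and 60.3 and 69.6 CPM with ethanol to 2.62 and 5.21 CPM with estradiol, the lowest log2 fold change of all tested genes (log2 fold change -4.05, SE 0.27, adjusted p = 1.32e-05). MFA2, the second a-factor gene, went from 94.98 and 84.0 to 16.9 and 29.9 CPM (log2 fold change -1.94, SE 0.29, adjusted p = 0.00248). STE6, the a-factor exporter, went from 276 and 294 to 152 and 98.4 CPM (log2 fold change -1.18, SE 0.25, adjusted p = 0.0264). STE6 lost its call in 3 of the 4 fits that left out a library (adjusted p = 0.192 without estradiol 2 h replicate 2), and the log2 fold change of MFA1 was -4.58, adjusted p = 6.83e-06 without estradiol 2 h replicate 2. Without estradiol 2 h replicate 1 the log2 fold change of MFA1 was -3.59, and MFA1 and MFA2 kept their calls whichever of the 4 libraries was left out. STE2, the alpha-factor receptor, was at 902 and 745 CPM untreated and 346 and 512 CPM with estradiol and was not called. The groups overlapped for BAR1, the alpha-factor protease, at 188 and 176 CPM untreated and 119 and 177 CPM with estradiol, and for ASG7. The summed level of 7 a-cell markers was 1575 and 1400 CPM in untreated cells, 1380 and 1530 CPM with ethanol and 661 and 860 CPM with estradiol. The 4 markers of alpha cells summed to 23.9 and 23.7 CPM untreated and 18.8 and 21.8 CPM with estradiol, with MF(ALPHA)1 at 0.324 and 0.158 CPM untreated and 0.238 and 0.488 CPM with estradiol. The part of these marker levels in the results was not tested. None of the 29 pheromone signalling genes was called, beside 3.47% of all genes. The haploid-specific markers summed to 480 and 493 CPM untreated, 487 and 387 CPM with ethanol 2 h and 382 and 361 CPM with estradiol. Among them GPA1, STE4 and STE5 were lower in both estradiol libraries than in both untreated ones, while FUS3 and STE18 overlapped. Sums for 5 meiotic markers were 40.04 and 42.37 CPM untreated, 40.38 and 45.71 CPM with ethanol 2 h and 45.2 and 48.5 CPM with estradiol.

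**Figure D3:**
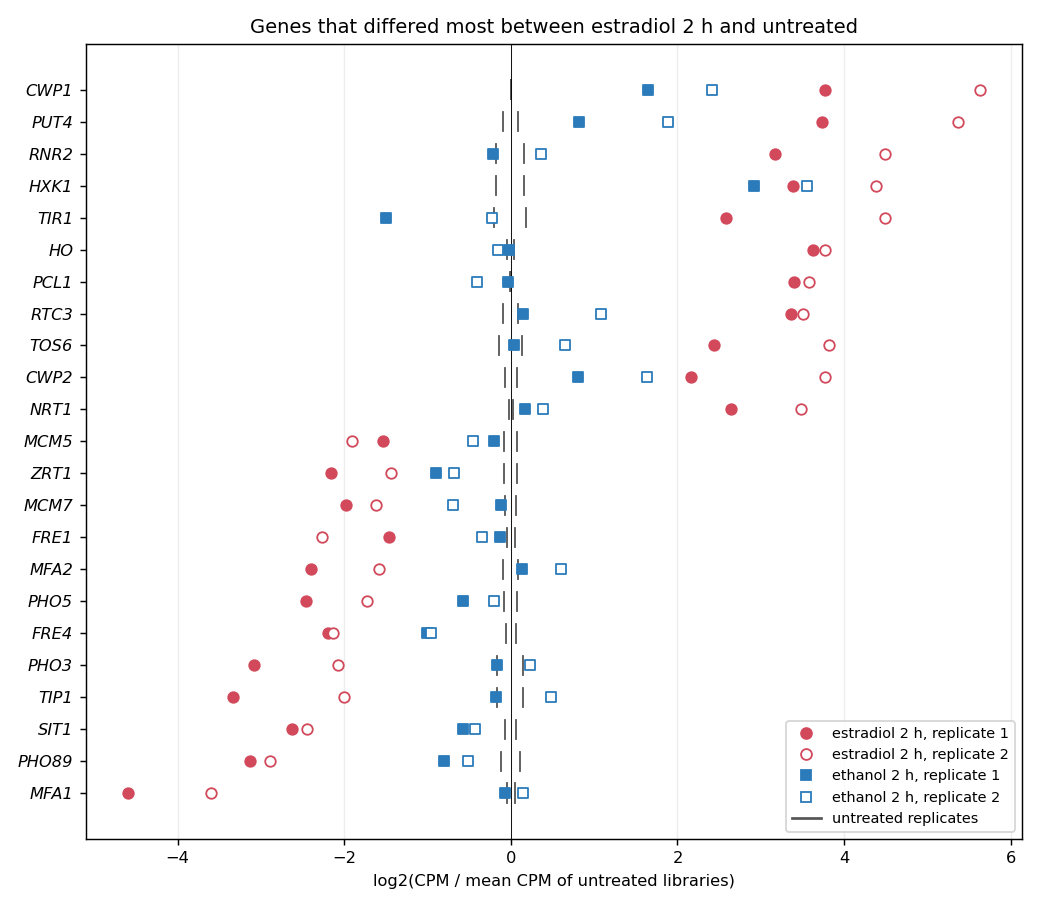
Log2 of each library's CPM over the mean CPM of the 2 untreated libraries, for the called genes that differed most in each direction, SWI4 left out for scale. Circles are estradiol 2 h (filled, replicate 1; open, replicate 2), squares are ethanol 2 h and grey ticks are the untreated libraries. For HO, PCL1 and RTC3 the circles nearly coincide, for CWP1, PUT4 and TIR1 replicate 2 lies well to the right of replicate 1, and for HXK1 the ethanol libraries lie close to the estradiol ones.

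The surface mannoproteins included large changes in both directions. Of 17 tested, 3 rose and 1 fell (23.5% called, beside 3.47% over all genes). CWP1, an abundant wall mannoprotein, went from 14.8 and 14.8 to 202 and 732 CPM, with ethanol 2 h between them at 46.4 and 78.6 CPM (log2 fold change 4.98, SE 0.64, adjusted p = 9.04e-04). TIR1, a mannoprotein of cold and low oxygen, went from 4.05 and 3.10 to 21.4 and 80.0 CPM, with ethanol 2 h at 1.26 and 3.06 CPM (log2 fold change 3.83, SE 0.55, adjusted p = 0.00208). CWP2, a neighbour of CWP1 on the chromosome, went from 185 and 168 to 792 and 2404 CPM (log2 fold change 3.18, SE 0.55, adjusted p = 0.00742). In these 3 genes estradiol 2 h replicate 2 was far above replicate 1, and without it the log2 fold changes were 3.78, 2.60 and 2.17, against 5.64, 4.51 and 3.78 without replicate 1. TIP1, a mannoprotein of the same family, fell from 147 and 118 to 13.1 and 33.0 CPM (log2 fold change -2.53, SE 0.52, adjusted p = 0.0217), while ethanol 2 h stood at 117 and 184 CPM and the log2 fold change was -3.33 without estradiol 2 h replicate 2. Only CWP1 kept its call whichever library was left out. The highest adjusted p was 0.0560 for TIR1 and 0.124 for CWP2, both without untreated replicate 2, and 0.130 for TIP1 without untreated replicate 1. Among 19 genes of cell wall integrity and the PIR family, 4 rose (21.1%, beside 2.51% called higher over all genes). CIS3, a PIR wall protein, went from 236 and 203 to 742 and 2067 CPM (log2 fold change 2.68, SE 0.51, adjusted p = 0.0129), with a log2 fold change of 1.76, adjusted p = 0.0743 without estradiol 2 h replicate 2 and adjusted p = 0.165 without untreated replicate 2. FIT1, a mannoprotein that retains siderophores, went from 1.21 and 0.788 to 4.64 and 14.3 CPM (log2 fold change 3.24, SE 0.50, adjusted p = 0.00338), with a log2 fold change of 2.25 without estradiol 2 h replicate 2 and adjusted p = 0.0764 without untreated replicate 2. BAG7, a regulator of the GTPase Rho1, rose by 1.41 over untreated cells and stood 1.09 above them with ethanol, and the wall sensor WSC2 rose by 1.42, or 0.72 with adjusted p = 0.343 without estradiol 2 h replicate 2.

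Several genes of nutrient uptake fell. In the phosphate list 3 of 23 fell (13%, against 0.963% called lower over all genes) and 0 rose. In the thiamine list, given below, 9.52% were called in either direction, beside 3.47% over all genes. PHO89, a phosphate transporter, went from 29.9 and 35.0 CPM untreated and 18.7 and 22.8 CPM with ethanol to 3.69 and 4.39 CPM (log2 fold change -3.01, SE 0.28, adjusted p = 1.50e-04). PHO5, the repressible acid phosphatase, went from 198 and 178 to 34.3 and 56.8 CPM (log2 fold change -2.05, SE 0.40, adjusted p = 0.0150). VTC3, of vacuolar polyphosphate synthesis, went from 1100.4 and 988 to 530.0 and 513 CPM (log2 fold change -1.002, SE 0.23, adjusted p = 0.0317). PHO89 also varied with time in the solvent, at 97.5 and 61.4 CPM after 1 h and 5.06 and 7.27 CPM after 4 h of ethanol. It was low in both estradiol 2 h libraries and held its call whichever of the 4 libraries was left out. PHO5 and VTC3 did not, reaching adjusted p = 0.106 without untreated replicate 1 and adjusted p = 0.288 without untreated replicate 1. In the thiamine list PHO3, an acid phosphatase that frees thiamine from its phosphates, fell from 412 and 330.3 to 43.7 and 88.2 CPM (log2 fold change -2.50, SE 0.44, adjusted p = 0.00784). THI7, a thiamine transporter, rose from 31.8 and 27.5 to 60.1 and 104 CPM (log2 fold change 1.46, SE 0.28, adjusted p = 0.0127). PHO3 and PHO5 are near copies, as are THI7 and NRT1, so reads may be shared within each pair. PHO3 had a log2 fold change of -3.08 without estradiol 2 h replicate 2 and reached adjusted p = 0.0658 without untreated replicate 1, and THI7 reached adjusted p = 0.163 without untreated replicate 2. NRT1, a transporter of nicotinamide riboside outside the lists, rose from 30.4 and 31.6 to 194 and 347 CPM (log2 fold change 3.12, SE 0.33, adjusted p = 2.95e-04), with ethanol 2 h at 34.8 and 40.5 CPM.

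In the iron list 5 of 27 fell and 0 rose. That count leaves out FIT1, the siderophore-retaining mannoprotein given above with the cell wall integrity genes, which rose by a log2 fold change of 3.24. Called shares were 18.5% of the iron list and 11.1% of the zinc list, beside 3.47% over all genes. SIT1, a siderophore transporter, went from 151 and 137 CPM untreated and 96.4 and 107 CPM with ethanol to 23.3 and 26.4 CPM (log2 fold change -2.54, SE 0.27, adjusted p = 3.00e-04). FRE4, a ferric reductase, went from 90.3 and 83.0 to 18.9 and 19.7 CPM, with ethanol 2 h between them at 43.2 and 44.8 CPM (log2 fold change -2.17, SE 0.26, adjusted p = 6.87e-04). FRE1, the main surface reductase of iron and copper, went from 145 and 136 to 50.8 and 29.1 CPM (log2 fold change -1.81, SE 0.40, adjusted p = 0.0317). The siderophore transporters ARN1 and ARN2 fell, with log2 fold changes of -0.95 and -0.92. ZRT1, the high-affinity zinc transporter and the only called gene of 9 in the zinc list, went from 91.8 and 82.7 to 19.5 and 32.2 CPM (log2 fold change -1.76, SE 0.37, adjusted p = 0.0230). SIT1 and FRE4 stayed called whichever of the 4 libraries was left out. FRE1 lost its call in 3 of the 4 such fits (adjusted p = 0.204 without estradiol 2 h replicate 2). ZRT1 reached adjusted p = 0.151 without untreated replicate 1, ARN1 adjusted p = 0.322 without untreated replicate 1 and ARN2 adjusted p = 0.327 without untreated replicate 1. For FRE4 and ZRT1 the direct test against ethanol 2 h missed the threshold, at -1.19, adjusted p = 0.0606 and -0.97, adjusted p = 0.546. FRE1 (-1.57, adjusted p = 0.124), ARN1 (-0.93, adjusted p = 0.116) and ARN2 (-0.45, adjusted p = 0.863) missed it too. Only SIT1 of the iron list passed it (-2.04, adjusted p = 0.00233).

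Stress, storage carbohydrate and sugar genes rose in part, and many of them stood higher after ethanol as well. Of 30 general stress genes 7 rose and 2 fell (30% called, beside 3.47% over all genes). Their median was 0.69 over untreated cells, where the ethanol 2 h median was 0.51. For estradiol 2 h over ethanol 2 h 0 of these genes were called higher and 2 lower. HOR7 went from 43.2 and 45.7 to 152 and 238 CPM, with ethanol 2 h at 78.5 and 113 CPM (log2 fold change 2.13, SE 0.28, adjusted p = 0.00120). STF2 went from 17.1 and 18.2 to 55.5 and 72.1 CPM, with ethanol 2 h at 39.9 and 37.3 CPM (log2 fold change 1.85, SE 0.25, adjusted p = 0.00140). The direct test against ethanol 2 h gave 1.02, adjusted p = 0.158 for HOR7 and 0.72, adjusted p = 0.405 for STF2, so neither differed from the solvent pair at the threshold. YRO2, a membrane protein of the plasma membrane, went the other way. It stood at 21.9 and 21.6 CPM untreated, at 39.9 and 39.4 CPM with ethanol, where it was not called, and fell to 8.57 and 7.16 CPM with estradiol (log2 fold change -1.46, SE 0.23, adjusted p = 0.00338). Against ethanol 2 h its log2 fold change was -2.32, adjusted p = 4.28e-04. Its relative MRH1 fell too, with log2 fold changes of -1.35 over untreated cells and -1.92, adjusted p = 0.00394 over ethanol 2 h, and MRH1 reached adjusted p = 0.180 without untreated replicate 1. Of the 9 called stress genes, HOR7, STF2 and YRO2 held their calls whichever of the 4 libraries was left out.

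Of 20 glycogen and trehalose genes 6 rose and 1 fell (35% called, beside 3.47% over all genes). The ethanol 2 h median of 0.42 stood beside 0.82 for estradiol, which was 0.41 without estradiol 2 h replicate 2. GSY2, glycogen synthase, went from 23.1 and 23.8 CPM untreated to 57.8 and 54.9 CPM with ethanol and 66.0 and 68.8 CPM with estradiol (log2 fold change 1.52, SE 0.18, adjusted p = 5.47e-04). TSL1, a subunit of trehalose synthase, went from 19.5 and 18.1 to 66.6 and 135 CPM (log2 fold change 2.42, SE 0.33, adjusted p = 0.00150). Without estradiol 2 h replicate 2 the log2 fold change of TSL1 was 1.83 and that of GPH1 1.42. GPH1, glycogen phosphorylase, went from 10.3 and 7.98 to 24.3 and 51.2 CPM (log2 fold change 2.05, SE 0.34, adjusted p = 0.00607) and reached adjusted p = 0.110 without untreated replicate 2. With ethanol 2 h TSL1 stood at 35.6 and 43.6 CPM and GPH1 at 20.95 and 28.5 CPM. For estradiol 2 h over ethanol 2 h 0 genes of this list were called higher and 1 lower. The log2 fold change of GSY2 between the hormone and the solvent was 0.26 (SE 0.17) and was not called. PIG1, a putative targeting subunit of a phosphatase for glycogen synthase, was the gene that fell, from 12.5 and 12.6 to 2.98 and 1.14 CPM (log2 fold change -2.54, SE 0.48, adjusted p = 0.0128), and it reached adjusted p = 0.0786 without untreated replicate 2. The log2 fold change of PIG1 was -3.44 without estradiol 2 h replicate 1. Its paralog PIG2 rose by 1.37 (adjusted p = 0.213 without untreated replicate 1).

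Of 27 genes of hexose transport and sensing 5 rose and 0 fell (18.5% called, beside 3.47% over all genes). The list's median log2 fold change over untreated cells was 0.27 with estradiol 2 h and 0.47 with ethanol 2 h. For estradiol 2 h over ethanol 2 h the median was -0.05 and 0 of the list's genes were called. HXK1, a hexokinase repressed by glucose, went from 6.88 and 5.41 CPM untreated to 46.4 and 72.3 CPM with ethanol and 64.1 and 129 CPM with estradiol (log2 fold change 3.97, SE 0.41, adjusted p = 2.62e-04). Ethanol 2 h alone stood 3.28 above untreated cells (adjusted p = 0.0232), and the estradiol pair did not differ from it at the threshold (0.69, adjusted p = 0.917). HXT4, a glucose transporter, stood above untreated cells with both, at 31.3 and 23.3 CPM untreated, 106 and 158 CPM with ethanol and 103 and 204 CPM with estradiol (log2 fold change 2.49, SE 0.43, adjusted p = 0.00673). Its log2 fold change for estradiol 2 h over ethanol 2 h was 0.21 and was not called. MTH1, a regulator of hexose transporter genes, went from 16.3 and 14.2 to 34.9 and 37.7 CPM (log2 fold change 1.26, SE 0.23, adjusted p = 0.00924), and ethanol 2 h was at 26.8 and 35.0 CPM. HXT4 reached adjusted p = 0.124 without untreated replicate 2 and MTH1 adjusted p = 0.153 without untreated replicate 2. The glucokinase GLK1 and its relative EMI2 were the other 2 called, at 3.11, adjusted p = 0.0473 and 2.11, adjusted p = 0.0221, and HXK1 was the only one of the 5 whose call held whichever of the 4 libraries was left out. GLK1 reached adjusted p = 0.397 without estradiol 2 h replicate 2 and EMI2 adjusted p = 0.217 without untreated replicate 2. Without estradiol 2 h replicate 2 their log2 fold changes were 1.55 and 1.42.

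Glycolysis and fermentation genes had a median of 0.86, but 2 of 22 were called and the median rested on 1 library. It was 1.43 without estradiol 2 h replicate 1 and -0.063 without replicate 2. PYK2, a pyruvate kinase isozyme, went from 11.2 and 9.77 to 28.9 and 74.2 CPM (log2 fold change 2.29, SE 0.45, adjusted p = 0.0165), with a log2 fold change of 1.47, adjusted p = 0.117 without replicate 2, and reached adjusted p = 0.182 without untreated replicate 2. ALD4, a mitochondrial aldehyde dehydrogenase, went from 24.7 and 19.8 to 48.2 and 136 CPM (log2 fold change 2.05, SE 0.50, adjusted p = 0.0463), with a log2 fold change of 1.12, adjusted p = 0.383 without replicate 2. PYC1, pyruvate carboxylase, was the only called gene of 24 in the TCA list and held its call in each left-out fit. It went from 56.8 and 56.6 to 238 and 505 CPM, with ethanol 2 h at 97.9 and 127 CPM (log2 fold change 2.71, SE 0.32, adjusted p = 6.40e-04), and its log2 fold change was 2.08 without estradiol 2 h replicate 2. Among 43 respiratory genes CYC1, a cytochrome c, and ATP20, a subunit of ATP synthase, rose by 1.63 and 1.16, and reached adjusted p = 0.157 without untreated replicate 1 and adjusted p = 0.104 without untreated replicate 1. The respiratory median was 0.51 over untreated cells, with ethanol 2 h at 0.42. Called shares were 4.17% of the TCA list and 4.65% of the respiratory list, near the 3.47% over all genes. They were 9.09% of the glycolysis list and 6.25% of the gluconeogenic list. Of 32 gluconeogenic and glucose-repressed genes GUT2, a glycerol phosphate dehydrogenase, rose by 1.10 and ATO3, an ammonium and acetate transporter, fell by 1.42, with adjusted p reaching 0.362 for GUT2 without estradiol 2 h replicate 2 and 0.263 for ATO3 without untreated replicate 1.

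Counts in the lists of protein synthesis are read against the 3.47% called over all genes. None of 81 large-subunit ribosomal protein genes and 1 of 56 small-subunit genes was called, RPS28B, which went from 196 and 186 to 86.1 and 82.2 CPM (log2 fold change -1.18, SE 0.24, adjusted p = 0.0221). The direction of both list medians was not settled: without estradiol 2 h replicate 1 they were 0.30 and 0.27, and without replicate 2 they were -0.34 and -0.38. Of 96 ribosome biogenesis genes 4 had a positive log2 fold change, and the median was -0.38 with estradiol and -0.43 with ethanol. The estradiol median was -0.53 without estradiol 2 h replicate 1 and -0.21 without replicate 2. The only one called was DOT6, itself a repressor of such genes, which rose from 64.2 and 58.0 to 106 and 156 CPM (log2 fold change 1.10, SE 0.27, adjusted p = 0.0489). Among 72 targets of Gcn4 in amino acid biosynthesis 4 fell (5.56%, against 0.963% called lower over all genes) and 0 rose, the arginine genes ARG3 and ARG8 and the lysine genes LYS9 and LYS12. ARG3 went from 157 and 158 to 71.0 and 92.4 CPM (log2 fold change -0.95, SE 0.19, adjusted p = 0.0162). LYS12 went from 1387 and 1226 to 624 and 642 CPM (log2 fold change -1.05, SE 0.23, adjusted p = 0.0280). LYS9 fell by 1.46 and ARG8 by 0.82. None of these 6 genes held its call in each left-out fit, and the highest adjusted p were 0.158 for RPS28B, 0.347 for DOT6, 0.135 for ARG3, 0.357 for ARG8, 0.325 for LYS9 and 0.270 for LYS12.

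In several other lists 1 or 2 genes were called. PUT4, the proline permease, went from 1.38 and 1.21 to 17.1 and 53.4 CPM, with ethanol 2 h at 2.27 and 4.78 CPM (log2 fold change 4.76, SE 0.60, adjusted p = 8.75e-04). Without estradiol 2 h replicate 2 its log2 fold change was 3.74, adjusted p = 0.00111, and without replicate 1 it was 5.38. GAT2, a GATA-type transcription factor gene, went from 6.15 and 8.03 to 51.3 and 44.3 CPM (log2 fold change 2.74, SE 0.29, adjusted p = 2.86e-04), and the 2 were the only called genes of 41 in the nitrogen list (4.88%, near the 3.47% over all genes). URA3, of pyrimidine synthesis and a common selection marker, went from 139.9 and 128 to 453 and 266 CPM (log2 fold change 1.42, SE 0.27, adjusted p = 0.0117). It was the only called gene of 13, reached adjusted p = 0.159 without untreated replicate 2, and the labels do not name the strain's markers. SPS4, a sporulation gene, went from 4.05 and 5.46 to 34.3 and 21.5 CPM (log2 fold change 2.54, SE 0.37, adjusted p = 0.00226) and was the only called gene of 26 in the meiosis list (3.85%). In the sulfur list of 31 genes MET28, a transcriptional regulator, rose by 1.36 and GSH1, of glutathione synthesis, fell by 0.79, with adjusted p = 0.387 without untreated replicate 2 and adjusted p = 0.234 without untreated replicate 1. RTC3, in no list, went from 3.64 and 4.15 to 40.01 and 44.4 CPM (log2 fold change 3.43, SE 0.35, adjusted p = 2.69e-04). Called shares were 6.45% of the sulfur list and 7.69% of the pyrimidine list, beside 3.47% over all genes. No gene was called in the lists of ergosterol, phospholipid, pleiotropic drug response, galactose and alpha-specific genes. In all 103 of the 997 tested list genes (10.3%) were called, in 29 of the 37 lists, and 117 called genes stood in no list.

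**Figure D4:**
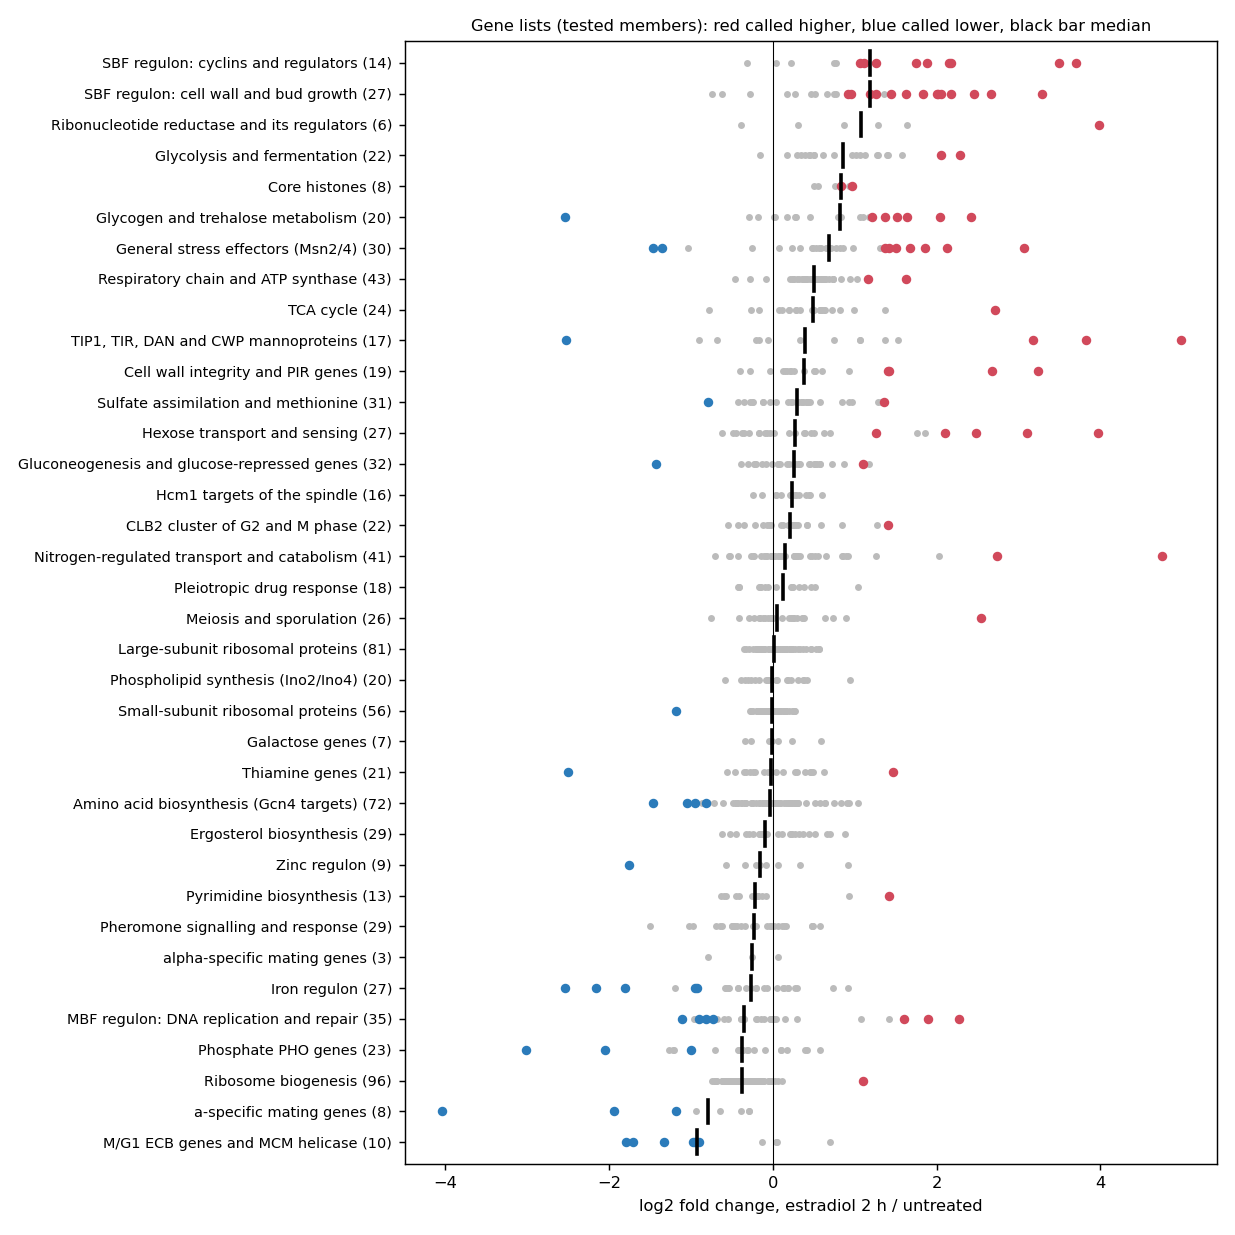
Log2 fold change of estradiol 2 h over untreated cells for every tested member of the gene lists shown, with the number tested in brackets, lists ordered by their median (black bar). Red points were called higher, blue points called lower and grey points not called. Both SBF lists lie at the top with medians of 1.18 and 1.18, and the a-specific and M/G1 lists lie at the bottom with -0.79 and -0.93.

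The 2 h libraries stood between those at 1 and 4 h of estradiol in time. The libraries at 1 h gave 97 calls against untreated cells (1.53%) and those at 4 h gave 675 (10.7%), all sharing the untreated pair. The 159 genes higher at 2 h had a median of 1.16 at 1 h and 1.91 at 4 h, and the 61 lower genes had medians of -1.02 and -1.20. No gene was called between 2 h and 1 h of estradiol (0%), with 172 genes at an unadjusted p under 0.05 and 14 calls by DESeq2. Between 4 h and 2 h 1 gene (0.0158%) was called, HSP12, a small stress protein of the membrane, with 276 genes at an unadjusted p under 0.05 and 19 calls by DESeq2. SWI4 stood at 1731 and 1007 CPM at 1 h and 1049 and 668 CPM at 4 h. HO stood at 297 and 327 CPM at 1 h and 584 and 579 CPM at 4 h. For neither gene did 1 h or 4 h differ from 2 h at the threshold, and the step from 1 h to 2 h gave -0.24, adjusted p = 0.999 for SWI4 and 1.001, adjusted p = 0.395 for HO. PHO89 was called lower than in untreated cells at each time, with 14.1 and 14.4 CPM at 1 h and 1.92 and 2.05 CPM at 4 h, and the step from 1 h to 2 h gave -1.82, adjusted p = 0.0868. HXK1 stood at 28.2 and 41.2 CPM at 1 h and 287 and 396 CPM at 4 h, and neither step beside 2 h passed the test (1.47, adjusted p = 0.701 from 1 h, 1.83, adjusted p = 0.284 to 4 h).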

How the data were processed

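Poly-A selected RNA was sequenced in 14 libraries. The deposited table holds raw read counts for 6670 reading frames, and per the submitters' processing notes the authors aligned reads with Bowtie2 2.2.5. No label or header states the counting tool, genome build or strand setting. Symbols were taken from the R64 table (5999 identifiers matched, 671 did not, and 16 of the 220 called genes are unmatched). The labels' protocol names 1 h of induction only, so times follow the sample labels.

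The deposited counts were fitted with edgeR 4.0.16 under R 4.3.3: TMM scaling, filterByExpr (minimum count 10), and a robust quasi-likelihood fit to all 14 libraries with 7 groups, no replicate block and 7 residual degrees of freedom (common biological coefficient of variation 0.206). Tests were 2-sided with Benjamini-Hochberg adjustment over 6337 genes and a threshold of 0.05. Each SE was obtained by dividing the size of the log2 fold change by the square root of F, and each group has n = 2. The method was tested on simulated data. DESeq2 1.42.0, sva 3.50.0, other scalings, filters, library sets and left-out libraries were alternatives.

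Genes named are SWI4, its partners and targets listed at the outset, the 12 highest and 12 lowest called genes of average log2 CPM of at least 3 with separate groups and a symbol, and up to 3 called members of smallest p per list (71 in all). Others were named after their values were seen. The result of 1 list is not reported here. The members, lists and tests were chosen with earlier results of these data known. Promoter windows were cut from the R64 genome, 250 bases before to 50 after each reading frame's start, in place of a promoter table. Counts of RNA measure shares of each library, not amounts per cell.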

Additional observations from a re-analysis of the deposited data

Results flagged for a closer look

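The level of HSP12 was higher after 4 h than after 2 h of estradiol, with a log2 fold change of 3.17 for 4 h over 2 h (SE 0.34, adjusted p = 0.00614 by edgeR's quasi-likelihood test). HSP12 stood at 0.405 and 0.21 CPM in untreated cells, 2.74 and 2.28 CPM after 2 h of estradiol and 18.01 and 27.9 CPM after 4 h. This compares levels, and the 4 h libraries also had 2 h more of culture and solvent. Ethanol libraries stood at 1.26 and 0.765 CPM after 2 h and 2.28 and 3.64 CPM after 4 h, and whether the effect of estradiol over ethanol differed between the times was not tested. Against untreated cells HSP12 was called at 2 h (3.07, adjusted p = 0.00558), a call that was lost without untreated replicate 2 (adjusted p = 0.108 without untreated replicate 2).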

How the results depend on the processing

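Against the 220 calls of estradiol 2 h over untreated cells (159 higher, 61 lower), leaving out 1 of the 4 libraries gave 71 to 294 calls, 55 to 241 of them higher and 13 to 53 lower. The estradiol 2 h and untreated libraries alone gave 41 calls (35 higher, 6 lower), adding the ethanol 2 h pair gave 149 (117 higher, 32 lower), and DESeq2 gave 444 (289 higher, 155 lower). Library totals as the only scaling gave 156 (110 higher, 46 lower), kept 119 of the 220 calls and moved the median log2 fold change over all genes to -0.10. RLE size factors gave 218, no filter 221 and a mean CPM of at least 10 gave 188. Among alternatives chosen after seeing the data, a surrogate variable gave 1404 calls (735 higher, 669 lower), removing a gene length trend gave 216 (137 higher, 79 lower) and keeping matched identifiers only gave 203. The share of calls that were higher was 72.3% in the main result, 85.4% with only the 4 libraries, 83.1% without untreated replicate 1 and 52.4% with the surrogate variable. The replicate block gave 241 calls (175 higher, 66 lower). Deviations of same-numbered libraries correlated at -0.621 between untreated and estradiol 2 h, at 0.563 between ethanol 2 h and estradiol 2 h and at -0.266 between untreated and ethanol 2 h, and the labels give no pairing, so the numbers were not taken to pair samples. The crossed pairing of the 4 libraries, chosen after seeing the data, gave 547 calls (412 higher, 135 lower). For ethanol 2 h over untreated cells the 3 calls became 5 with the replicate block, 255 with those 4 libraries alone, 0 with 6 libraries by edgeR (296 genes at an unadjusted p under 0.05) and 41 with DESeq2. For estradiol 2 h over ethanol 2 h the 80 calls became 40 with those libraries alone, 48 with 6 libraries and 150 with DESeq2. DESeq2, added later for the times, gave 14 calls for 2 h over 1 h and 19 for 4 h over 2 h. The cause of these shifts was not tested. Of the 67 called genes named by the rule, 18 kept their call under every alternative, 32 kept it whichever of the 4 libraries was left out and 0 reversed. Levels near those of HSP12 in untreated cells (0.405 and 0.21 CPM) rest on few reads, and their fold changes depend on that depth.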

Other observations

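Some called genes outside the lists, chosen after their values were seen, belong to the cell cycle or the cell surface. MSA1 and MSA2, which associate with SBF and MBF, fell, with log2 fold changes of -1.43 and -0.85, and MSA1 went from 35.9 and 36.2 to 14.2 and 12.5 CPM (adjusted p = 0.00399), with ethanol 2 h at 29.8 and 29.4 CPM. SRL3, a relative of WHI5, rose from 17.5 and 13.7 to 45.1 and 71.3 CPM (adjusted p = 0.00416), and ethanol 2 h stood between at 33.1 and 35.2 CPM. ACM1, an inhibitor of the anaphase-promoting complex, rose from 20.6 and 20.7 to 59.2 and 76.8 CPM (adjusted p = 2.62e-04). SPC42, of the spindle pole body, rose from 20.5 and 25.1 to 57.9 and 51.1 CPM (adjusted p = 0.00175). MSA1, ACM1 and SPC42 kept their calls whichever of the 4 libraries was left out, and MSA2 and SRL3 did not (adjusted p = 0.288 without untreated replicate 1 and adjusted p = 0.0831 without untreated replicate 2).

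The lipid genes SWH1, an oxysterol-binding protein, and TGL5, a triacylglycerol lipase, rose by 1.53 and 2.12 and kept their calls in each of those fits. The vacuolar protease gene PRB1 rose by 2.12 and the gene of its inhibitor, PBI2, by 2.82, and PRB1 reached adjusted p = 0.0698 without untreated replicate 2. The subtelomeric frames YAR066W, YAR068W, YHR214W and YHR214W-A rose by 2.96 to 3.76, and without estradiol 2 h replicate 2 the values were 2.38 for YAR066W and 2.92 for YHR214W-A. Some of them may be near copies, not each of every other, so reads may be shared among some of them and their single values are uncertain.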
